A study of Mus musculus with 36 samples.

Results

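MBD3 was mapped by chromatin immunoprecipitation and sequencing (ChIP-seq) in mouse embryonic stem cells, and the peaks of day 4 are set here against those of day 6. The members are all intervals of both MBD3 peak lists on chromosomes 1 to 19, X and Y, with each interval counted once: 9006 peaks on day 4 and 10875 on day 6, of 182783 peaks in the 8 lists of the series. The series holds 36 samples in 12 groups of 3, namely MBD3, CTCF and input chromatin on days 0, 2, 4 and 6. Both groups compared, MBD3 day 4 and MBD3 day 6, are 3 samples each of the same kind of cell, grown in serum replacement medium with leukaemia inhibitory factor on gelatin and irradiated mouse embryonic fibroblasts, so chromatin of the feeder cells may be present. The labels name no agent, allele or medium change that separates the days, and the names of the peak lists carry WT. The authors pooled the 3 replicates of a day before calling peaks, which leaves 1 list per day, no spread between replicates and no test of a change. Each share below therefore has an exact (Clopper-Pearson) 95% interval over peaks that covers counting error only. It takes the peaks as independent, which was not tested. PCR-amplified fragments without molecular identifiers are not independent molecules, and no interval here covers that.

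MBD3 belongs to NuRD, the complex for nucleosome remodelling and histone deacetylation, which joins a chromatin remodelling ATPase with histone deacetylases. Unlike its relative MBD2 it binds methylated DNA poorly, and in embryonic stem cells the complex is found at enhancers and promoters and is needed for orderly exit from self-renewal. CTCF is the zinc finger protein that marks insulators and anchors of chromatin loops. A peak is an interval where the immunoprecipitated fragments exceed the expected background, its summit is the position of most fragments, and its fold is the authors' ratio of fragments to that background at the summit.

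The promoter sequences below show what the 3 classes of peak looked like at gene starts: MBD3 on day 4 alone (Pcp4, Bsn, Fam241b), on day 6 alone (C1rb, Ephb1, Glipr1l1) and on both days (Nipsnap2, Rapgef1). Each is 120 bases of the RefSeq promoter window (GRCm38.p6, the assembly of mm10) that holds the summit, 5′ to 3′ on the strand of the gene, with every CG dinucleotide in capitals.
Pcp4, chr16:96467486-96467605, plus strand: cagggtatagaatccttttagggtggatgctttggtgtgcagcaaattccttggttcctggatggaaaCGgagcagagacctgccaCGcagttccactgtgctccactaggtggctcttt
Bsn, chr9:108190384-108190503, minus strand: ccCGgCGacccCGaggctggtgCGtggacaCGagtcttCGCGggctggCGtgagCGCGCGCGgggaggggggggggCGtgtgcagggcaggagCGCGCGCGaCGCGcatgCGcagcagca
Fam241b, chr10:62110969-62111088, minus strand: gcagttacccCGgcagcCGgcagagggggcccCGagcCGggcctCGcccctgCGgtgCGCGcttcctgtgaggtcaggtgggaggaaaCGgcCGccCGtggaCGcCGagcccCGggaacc
C1rb, chr6:124570180-124570299, plus strand: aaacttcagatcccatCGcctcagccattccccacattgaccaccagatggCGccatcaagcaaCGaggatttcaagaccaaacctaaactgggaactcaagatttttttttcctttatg
Ephb1, chr9:102354819-102354938, minus strand: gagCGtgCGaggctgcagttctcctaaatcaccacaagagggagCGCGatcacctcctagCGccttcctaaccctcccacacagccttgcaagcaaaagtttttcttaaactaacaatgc
Glipr1l1, chr10:112060069-112060188, plus strand: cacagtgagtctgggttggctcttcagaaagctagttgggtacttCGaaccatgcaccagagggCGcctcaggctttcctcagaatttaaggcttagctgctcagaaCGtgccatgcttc
Nipsnap2, chr5:129724934-129725053, plus strand: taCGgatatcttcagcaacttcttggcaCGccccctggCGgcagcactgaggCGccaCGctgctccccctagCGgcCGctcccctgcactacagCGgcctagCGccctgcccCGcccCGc
Rapgef1, chr2:29619600-29619719, plus strand: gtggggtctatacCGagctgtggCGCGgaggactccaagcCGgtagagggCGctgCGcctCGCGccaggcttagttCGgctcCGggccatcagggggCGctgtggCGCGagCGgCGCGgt
Bsn, which encodes the presynaptic scaffold Bassoon, and Fam241b held 38 and 25 CG dinucleotides in their promoter windows of 300 bases, and Nipsnap2 and Rapgef1 held 27 and 26. C1rb, a complement protease gene, Ephb1, an ephrin receptor gene, and Glipr1l1 held 3, 14 and 7. Pcp4, a calmodulin regulator gene, had the highest fold of those on day 4 alone and only 6, so the class was not uniform. The class here is that of the peak and not of the gene, and Bsn is not among the genes of day 4 alone named by fold below.

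Over all promoter windows that held an MBD3 summit, those of day 4 alone were richer in G and C than those of day 6 alone. The median G+C was 65.8% in 256 windows of day 4 alone (243 genes), 55.7% in 71 windows of day 6 alone (66 genes), 64.0% in 453 windows of shared peaks and 56.3% in all 21263 promoter windows of coding genes. The median number of CG dinucleotides was 26, 15, 24 and 13 in the same order. The 74 windows of day 4 alone outside CTCF peaks had the highest values, with 71.8% G+C and 35 CG dinucleotides. The motif GGNGGCAG, a short form of a CTCF core, was found on either strand in 23.8% of the windows of day 4 alone, 15.5% of those of day 6 alone, 18.98% of the shared ones and 13.5% of all. AGNNGGCGC, a second core form that was chosen after the sequences had been seen and that can overlap the first, was found in 37.5%, 46.5%, 49.7% and 9.18%. Both are matches of letters in these windows and not binding sites. The table of promoters covers 79.9% of the coding genes.

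Shared peaks were the larger class on day 4, and on day 6 they were slightly more than the peaks of that day alone. Of the day 4 peaks 5696 overlapped a day 6 peak by at least 1 bp, which is 63.2% (62.2 to 64.2), and 3310 were found on day 4 alone. Of the day 6 peaks 5696 overlapped a day 4 peak, which is 52.4% (51.4 to 53.3), and 5179 were found on day 6 alone. The order on day 6 turned with a −log10 q of 10 or more in both lists, where 48.5% were shared, and without the peaks of high background, where 45.8% were. Peaks of 1 day had fewer fragments than shared ones: the median number over the summit was 30 on day 4 alone and 26 on day 6 alone, against 46 for shared peaks on either day. The expected background was lower too, with medians of 7.84 and 4.91 against 10.6 and 8.79 for shared peaks on days 4 and 6. Median folds were 3.45 against 4.10 on day 4, and 4.54 against 4.64 on day 6, where they were close. The best folds were 11.0 on day 4 alone and 40.7 on day 6 alone. A −log10 q of 10 or more was reached by 17.1% of the peaks of day 4 alone and 34.9% of those of day 6 alone, against 58.9% and 68.3% of the shared peaks on days 4 and 6. Few of the single-day peaks were shifted copies of a peak of the other day, since 14 of day 4 alone and 19 of day 6 alone had a summit of the other day within 500 bp. Across chromosomes 1 to 19 and X, the share of day 4 peaks found on day 6 was lowest on chromosome X, with 80 of 150 peaks (53.3%, 45.0 to 61.5). The read depth is not in the peak lists, but the genome-wide background level recovered from them, which follows the amount and length of the sequenced fragments, was 1.93 fragments on day 4 and 1.41 on day 6.

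Gene ends were the place where the days differed most. Coding gene ends, taken as the 1 kb to each side of the outer ends of a gene in the annotation, held 24.4% of the peaks of day 4 alone (806 of 3310, 22.9 to 25.9) and 8.05% of those of day 6 alone (417 of 5179, 7.32 to 8.83), a difference of 16.3 percentage points (Newcombe interval 14.7 to 18.0). Shared peaks lay between them, with 19.03% (1084 of 5696, 18.0 to 20.1). The difference was mostly at starts: summits within 1 kb of any listed start of a coding gene, inner starts included, made up 19.8% of the peaks of day 4 alone and 3.77% of those of day 6 alone. Of the gene-end peaks, 547 of day 4 alone and 156 of day 6 alone were at such a start, and 259 and 261 were not. Within 250 bp of a start there were 425 summits of day 4 alone and 81 of day 6 alone. Peaks of day 6 alone lay more often between genes, with 40.1% against 31.4%, and inside coding genes away from their ends, with 38.6% against 34.0%. Noncoding genes held 10.7% of day 6 alone and 8.16% of day 4 alone, and pseudogenes held 2.61% and 2.15%. Read by place, 57.4% of the day 4 peaks at coding gene ends were found again on day 6, against 65.4% of those between genes. In the other direction the order was turned, with 72.2% of the day 6 peaks at coding gene ends and 48.7% of those between genes already found on day 4.

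**Figure D1:**
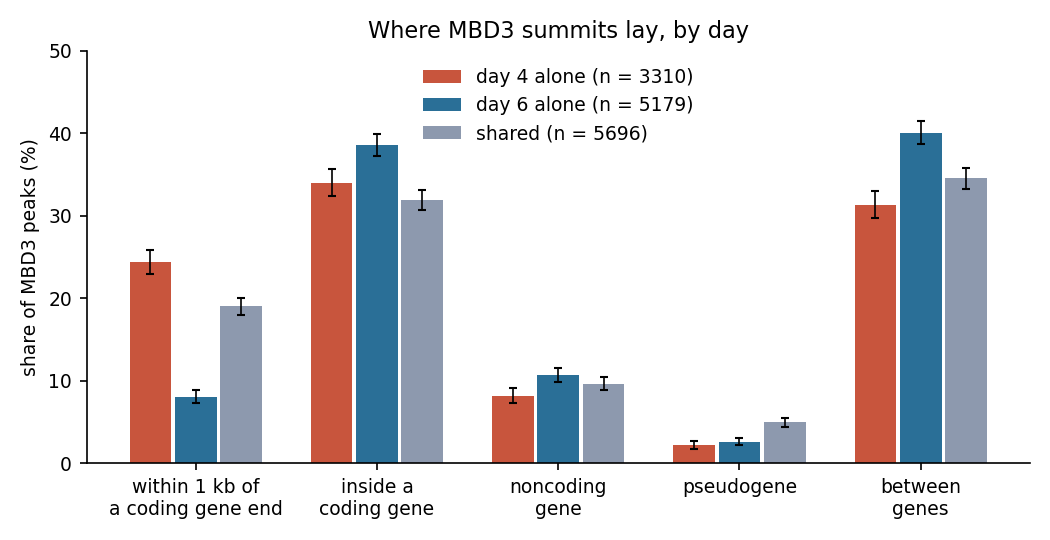
Share of MBD3 peaks (%) whose summit lay in each kind of place, for peaks of day 4 alone, of day 6 alone and shared peaks (day 4 summits), with exact 95% intervals as error bars. Coding gene ends hold 24.4% of the peaks of day 4 alone and 8.05% of those of day 6 alone, and between genes the order is turned, with 31.4% and 40.1%.

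The gap at gene ends was widest in peaks of low fold and of high expected background. Below a fold of 3, 44.1% of the peaks of day 4 alone (461 of 1045) and 21.5% of those of day 6 alone (60 of 279) were at coding gene ends. Between 3 and 4 these shares were 21.0% and 10.1%, and between 4 and 5 they were 10.5% and 7.26%. From 5 to 6 they were 5.93% and 6.27%, and at 6 or more 5.13% (6 of 117) and 3.75% (30 of 801), where the intervals overlap. The bands by expected background gave the complementary picture. Their cuts are the same on both days, while the genome-wide background level was 1.93 fragments on day 4 and 1.41 on day 6. A band is therefore not the same multiple of that level on each day. With under 4 expected fragments 2.05% of the peaks of day 4 alone and 3.47% of those of day 6 alone were at gene ends, and with 12 or more 53.7% and 30.9%. The day 4 peaks of that last band numbered 911 and the day 6 peaks 249. A limit on q acts differently, because a low fold over a high background can have a small q: at a −log10 q of 10 or more in both lists the shares were 26.3% and 9.82%. A further limit, chosen after the data were seen, left out peaks where more than 10 times the genome-wide background of their list was expected. The shares were then 25.8% and 7.47%. Both lists were cut before the overlap, so peaks whose partner was removed counted as single-day. The peaks of day 4 alone thereby rose from 3310 to 3643, so this setting cannot show how the gap depends on background. The part of depth and background in the shift was not tested.

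**Figure D2:**
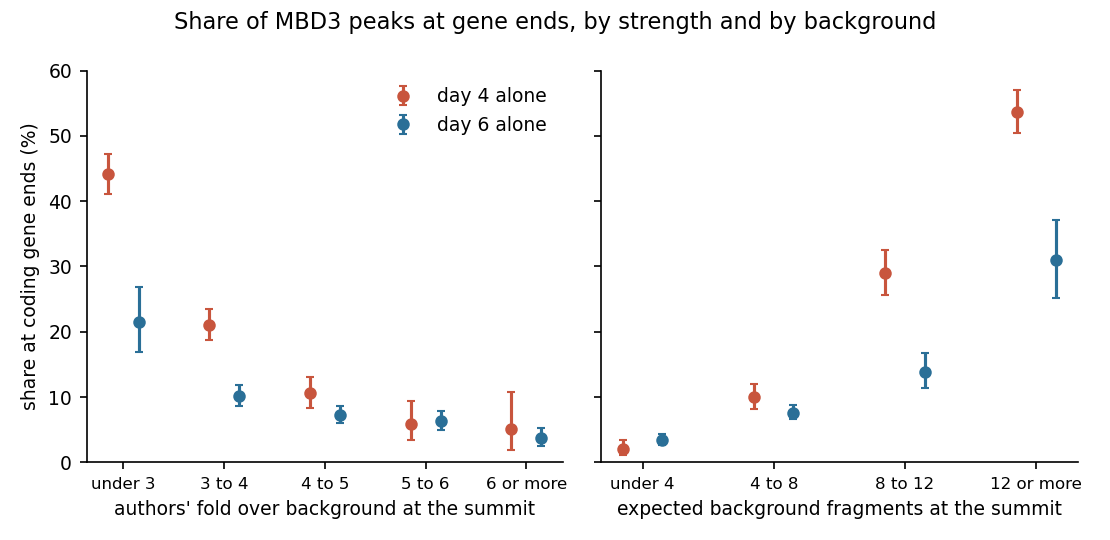
Share of single-day MBD3 peaks (%) at coding gene ends, by bands of the authors' fold (left) and of expected background fragments at the summit (right), with exact 95% intervals. The intervals of day 4 alone lie wholly above those of day 6 alone below a fold of 4 and from 8 expected fragments on, and in the other bands the intervals overlap.

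Single-day peaks at gene ends also differed in CTCF. On day 4 alone 468 of the 806 gene-end peaks (58.1%, 54.6 to 61.5) overlapped a CTCF peak of day 4, and 338 did not. On day 6 alone 377 of 417 (90.4%, 87.2 to 93.1) overlapped a CTCF peak of day 6, close to the 92.1% of the shared gene-end peaks on day 4. The 338 gene-end peaks of day 4 outside CTCF were weak, with a median fold of 2.65 from 36 fragments where 13.1 were expected. Of them 13.6% overlapped an MBD3 peak of day 0, against 50.2% of the 468 inside CTCF. Over all places a CTCF peak of the same day lay under 71.9% (70.3 to 73.4) of the peaks of day 4 alone and 92.4% (91.6 to 93.1) of those of day 6 alone, a difference of −20.5 points (−22.2 to −18.8), and under 91.5% and 91.4% of the shared peaks on days 4 and 6.

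CTCF peaks stood on both days at nearly all of the CTCF sites with MBD3 on a single day. Of the single-day peaks inside a CTCF peak of their own day, 98.0% (2331 sites) on day 4 alone and 99.5% (4760 sites) on day 6 alone overlapped a CTCF peak on both days. The CTCF fold at these sites differed with MBD3. At 2324 CTCF sites with MBD3 on day 4 alone the median CTCF fold was 11.4 on day 4 and 10.4 on day 6, and 36.4% of the sites had the higher CTCF fold on day 6. At 4750 sites with MBD3 on day 6 alone the medians were 11.3 and 13.8, and 73.9% were higher on day 6. The median ratio of the day 6 to the day 4 CTCF fold was 0.91 and 1.21 in these groups, 1.06 at 5201 sites with MBD3 on both days and 1.05 at 20982 sites without MBD3. It was 0.93 and 1.21 for sites at coding gene ends alone.

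**Figure D3:**
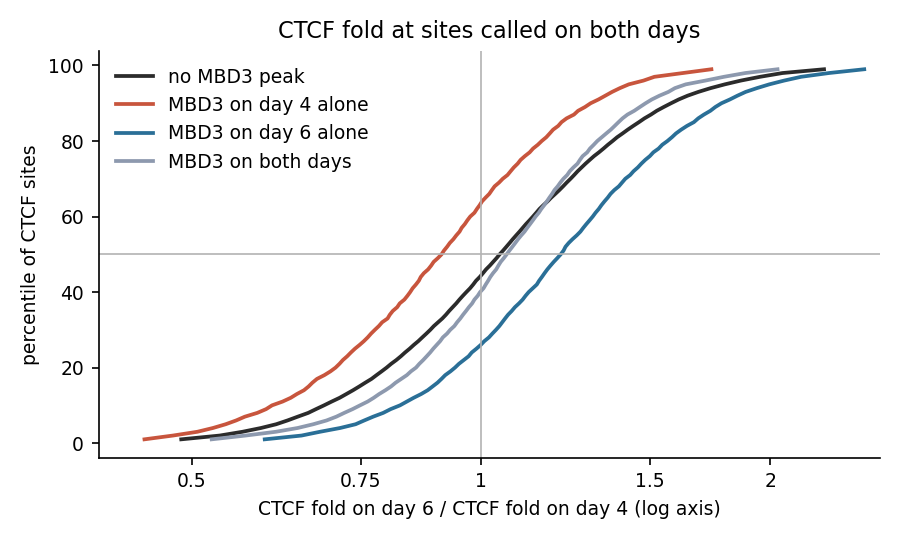
Ratio of the authors' CTCF fold on day 6 to that on day 4 (log axis) against the percentile of sites, for CTCF peaks found on both days, grouped by MBD3. The curve of MBD3 on day 4 alone lies to the left, with a median of 0.91, and that of day 6 alone to the right, with a median of 1.21.

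This difference in CTCF fold sat in the background and hardly in the fragments. Over the summits where both could be recovered, CTCF fragments had a median ratio of day 6 to day 4 of 1.20 with MBD3 on day 4 alone and 1.23 with MBD3 on day 6 alone. The expected background at the same CTCF summits had median ratios of 1.37 and 1.02. It was higher on day 6 at 83.9% of the sites with MBD3 on day 4 alone and at 52.5% of those with MBD3 on day 6 alone, against 61.1% of the sites without MBD3 and 76.2% of those with MBD3 on both days. At coding gene ends the background ratio was 1.42 with MBD3 on day 4 alone and 1.07 with MBD3 on day 6 alone, at fragment ratios of 1.27 and 1.26. The control used for each list is not given in the sources used here. If both antibodies of a day were set against the same input, the MBD3 and CTCF folds of a site share its background, and a change of MBD3 or CTCF and a change of input cannot be told apart from the folds.

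At the level of genes, 1292 of 21887 protein-coding genes (5.90%) had an MBD3 peak within 1 kb of an end on both days, 865 (3.95%) on day 4 alone and 451 (2.06%) on day 6 alone. These genes of a single day rested on 793 and 410 peaks, because neighbouring genes can share one. At 9 genes of day 4 alone and 8 of day 6 alone the other day had an overlapping peak that lay outside the window. CTCF was at the ends of 65.5% of the genes of day 4 alone on day 4 and of 89.8% of those of day 6 alone on day 6. The excess of day 4 genes depended on the window and on the limit on q. With a −log10 q of 10 or more in both lists 350 genes had MBD3 on day 4 alone and 345 on day 6 alone. Within 5 kb of an end 1239 genes had MBD3 on day 4 alone and 1280 on day 6 alone, and with a peak anywhere in the gene 1285 and 1459.

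The strongest gene of day 4 alone was Syap1, which encodes a synapse-associated protein and lies on chromosome X. Its peak at 162888196 to 162888448 (mm10) had a fold of 11.0 from 62 fragments where 4.70 were expected, with no CTCF peak on either day and MBD3 folds of 4.64 on day 0 and 9.14 on day 2. Pcp4 on chromosome 16 followed with a fold of 6.89, and its CTCF fold was 17.8 on day 4 and 10.7 on day 6. Stmn1, which encodes the microtubule regulator stathmin, had 6.45 with no CTCF, and Gtsf1l had 6.21 with CTCF folds of 18.0 and 14.2. Fen1, the flap endonuclease of DNA replication, had 5.70, and Kcnk9, a potassium channel gene, had 5.66. Eef1g, a translation elongation factor gene, had 5.61 with no CTCF on either day. Cux2, a neuronal homeobox gene, had 5.41, and Fam241b had 5.40, both with CTCF folds above 10 on both days. Of the 10 genes named by this rule, Pcdha8 included, 7 carried CTCF on both days, and those without it were Syap1, Stmn1 and Eef1g.

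Genes of day 6 alone reached higher folds on lower backgrounds. Gsdma3, a gasdermin gene on chromosome 11, led with a fold of 12.9 at 98625005 to 98625416, from 34 fragments where 1.71 were expected. Rps23rg1, a retrogene of a ribosomal protein, had 11.2, and neither of them had a CTCF peak. Parp11, a mono-ADP-ribosyltransferase gene, had 9.39, and CTCF there had folds of 16.0 on day 4 and 26.0 on day 6. Htr1a, the serotonin receptor gene, had 7.59 beside CTCF folds of 19.5 and 36.5. Hsp90ab1, which encodes a cytosolic HSP90 chaperone, had 7.88 at a peak 660 bp from an end with no CTCF, and an MBD3 fold of 7.68 there on day 2. A stronger peak inside the same gene was shared, with folds of 28.65 on day 4 and 64.6 on day 6. It lay 1230 bp from an end on day 4, so Hsp90ab1 is of day 6 alone only by the window of 1 kb. Ltv1, a ribosome assembly gene, had 8.10 with no CTCF, and Procr and Psen2, a presenilin gene, had 7.43 and 7.38 with CTCF on both days.

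Genes with MBD3 on both days were led by peaks without CTCF. Wdr89 had folds of 34.6 on day 4 and 88.6 on day 6, Gm5148 had 21.9 and 68.2, and the ribosomal protein gene Rpl4 had 15.6 and 31.0 at a peak it shares with Snapc5, all with no CTCF peak. Their day 2 folds were 88.0, 64.4 and 29.8. Gm15501, with 16.5 and 23.5, had no CTCF peak either. The remaining genes of the 10 carried CTCF on both days. Nipsnap2 had 19.4 and 24.7, with CTCF folds of 30.8 and 40.0, and Rapgef1, a guanine nucleotide exchange factor gene, had 19.8 and 23.6, with CTCF folds of 35.4 and 33.2. Cdsn, a gene of the skin barrier, had 17.1 and 22.0. A single peak served the tumour suppressor gene Trp53 and its neighbour Wrap53, with 12.9 and 19.3 beside CTCF folds of 20.5 and 31.0.

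Among the gene lists, a few regulators of chromatin and of the stem cell state had MBD3 on day 4 alone, in small counts that were not tested against the background. Against the background of 3.95% of all coding genes on day 4 alone and 2.06% on day 6 alone, the NuRD subunit list had 3 and 0 of 15 genes. These were Hdac2, a deacetylase of the complex (fold 3.86), Mbd3 itself (2.48) and the remodeller gene Chd3 (2.65), while the histone chaperone gene Rbbp7 had MBD3 on both days with folds of 8.30 and 6.92. None of these 4 peaks overlapped a CTCF peak on day 4. The DNA methylation list had 3 and 0 of 15: Mbd3 again, Uhrf1, which targets maintenance methylation (2.01), and the dioxygenase gene Tet2 (2.29). Of 22 core and naive pluripotency genes, 2 had MBD3 on day 4 alone and 0 on day 6 alone. Pou5f1, which encodes Oct4, had a fold of 4.39 from 55 fragments where 11.8 were expected, and Klf5 had 2.56. Sox2 had MBD3 on both days with 6.02 and 3.08. The formative and primed list had 0 of 13 genes in any class.

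Among lineage genes the counts were small and differed by list. Of 22 mesoderm and endoderm regulators, 3 had MBD3 on day 4 alone and 0 on day 6 alone: Eomes (3.44), Mesp1 (3.21) and Sox17 (2.68), each with CTCF on both days. The neuroectoderm list had 2 on each day of 18: the Notch effector gene Hes1 (3.41) and Sox1 (2.34) on day 4, and the neuronal tubulin gene Tubb3 (4.12) and the intermediate filament gene Nes (3.27) on day 6. Of 22 Polycomb genes Eed (2.63) and Cbx2 (2.33) had it on day 4 alone, and the methyltransferase gene Ezh2 had it on both days, with 4.48 and 3.33. Among 37 signalling genes 3 had it on day 4 alone, including Spry1 (4.38), a feedback inhibitor of FGF signalling, and Jag1 (2.67), a Notch ligand gene, and Fgfr2 (4.39) was the 1 gene of day 6 alone. The 73 core histone genes had 9 on day 4 alone, 0 on day 6 alone and 14 on both days. These rested on 6 and 9 peaks, since histone genes stand close together, and the peak shared by H2ac24, H4bc24 and H4c18 had folds of 7.69 and 4.44.

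The other lists are given as genes on both days, on day 4 alone and on day 6 alone, against 5.90%, 3.95% and 2.06% of all coding genes. The list of CTCF and cohesin genes had 4 of 19 on both days: Stag2 (11.3 and 8.30), Ctcf (5.00 and 4.74), Pds5b (5.19 and 3.78) and Esco1 (7.54 and 4.44), and Ctcfl (3.99) had it on day 4 alone. Ribosomal protein genes had 18 of 84 on both days, 4 on day 4 alone and 9 on day 6 alone, with Rpl5 (4.15), Rps9 (5.70) and Rps18 (5.22) in the last class. Translation factors and chaperones had 2, 5 and 3 of 25, with Eif5a (3.66) on day 4 and the heat shock cognate gene Hspa8 (6.83) and Hspa5 (4.40) on day 6. Imprinted genes had 0, 0 and 2 of 23 matched genes, Peg10 (4.85) and Gnas (3.22). Fibroblast genes, listed because of the feeder cells, had 1, 0 and 2 of 20: Col1a1 on both days (6.38 and 9.27), and Pdgfra (4.04) and Col1a2 (2.92) on day 6. Hox genes had 3 in each class of 39. Clustered protocadherins had 22 of 57 on both days, which rested on 4 peaks, 4 on day 4 alone and 2 on day 6 alone. Zinc finger genes named Zfp or Zscan had 11, 8 and 7 of 413, and olfactory receptor genes had 0, 0 and 2 of 1110. Trophoblast regulators had 1, 0 and 0 of 9, cell cycle and MYC genes 2, 2 and 0 of 22, and cytoskeleton and glycolysis genes 2, 2 and 1 of 25. No list was tested against these shares, and counts of a few genes cannot be read as departures from them. The larger counts, such as those of ribosomal protein genes, were not tested either. Many of the folds stand near the lower end of their list.

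**Figure D4:**
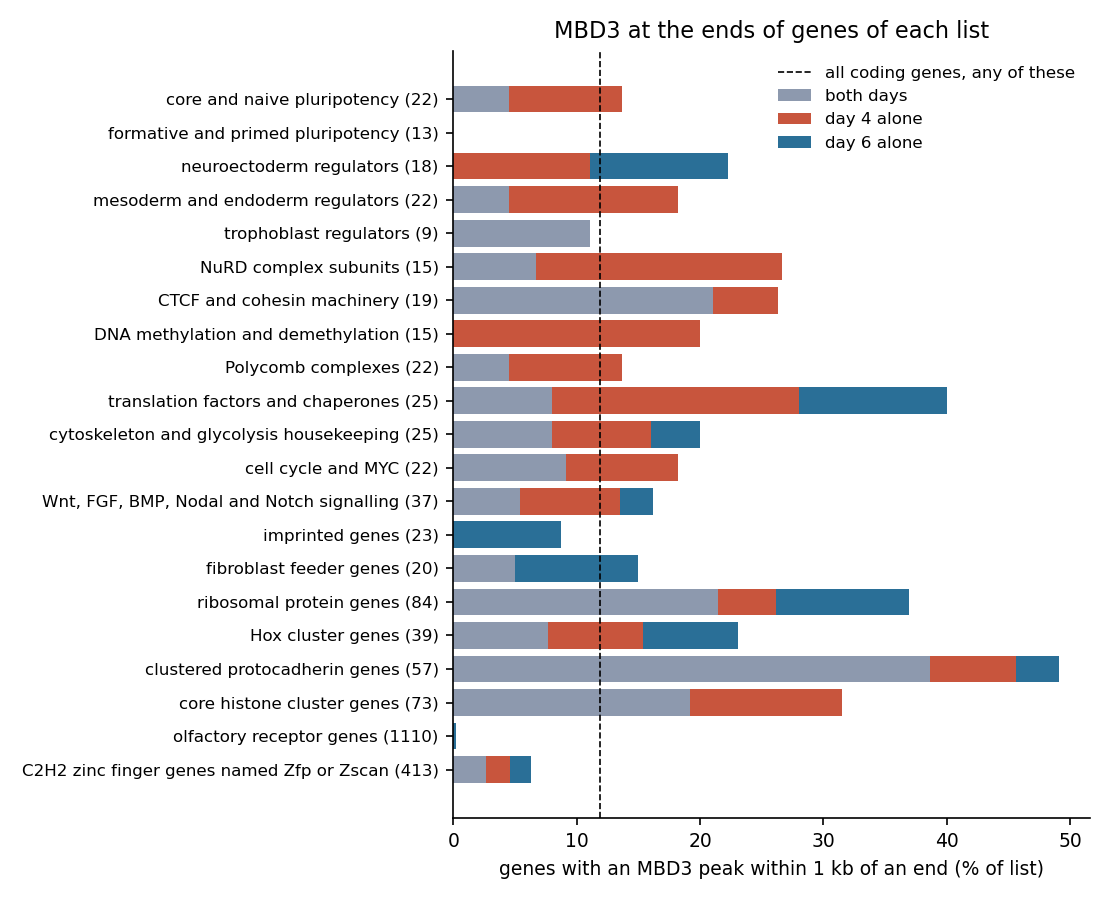
Percentage of the genes of each list (number matched in brackets) with an MBD3 peak within 1 kb of an end, stacked as both days, day 4 alone and day 6 alone. The dashed line is the sum of the 3 classes over all protein-coding genes. Some lists show day 4 alone without day 6 alone, among them NuRD subunits, DNA methylation, mesoderm and endoderm regulators and core histones. Day 6 alone held 2.06% of all protein-coding genes, so its absence from lists this small cannot be told from the background. Mbd3 is counted in the NuRD list and in the DNA methylation list.

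Away from coding gene ends and pseudogenes, the strongest peaks of day 4 alone lay on CTCF sites. Between genes the leading one was on chromosome 5 at 41768477 to 41768725, 4376 bp from the homeobox gene Nkx3-2, with a fold of 9.43, and its CTCF fold was 29.9 on day 4 and 17.1 on day 6. Inside coding genes Tmem117 had 9.27, the ciliary gene Invs had 9.22 and the ubiquitin ligase gene Btrc had 8.90, and CTCF had folds of 23.7 and 11.5 at Tmem117. The noncoding gene Gm51815 had 8.19. At pseudogenes the strongest of day 4 alone, Gm16437 (6.22), Gm5537 (6.14) and Gm5297 (6.05), had no CTCF peak on either day. The strongest peaks of day 6 alone were with and without CTCF outside pseudogenes too. Luc7l3, a splicing factor gene, had 25.7 from 79 fragments where 2.11 were expected, the chaperone gene Hspa4 had 17.6 and the nucleolin gene Ncl had 14.7, all inside the gene. These intervals had no CTCF on either day and no MBD3 peak on days 0, 2 or 4. Another peak inside Ncl was shared, with folds of 6.82 on day 4 and 24.3 on day 6. The pseudogenes Gm51615 (40.7), Gm13237 (22.3) and Gm12583 (19.1) had no CTCF peak either. Near Acbd6, Katnal1 and Auts2 the folds were 10.4, 10.4 and 10.3, with CTCF folds of 19.8, 13.6 and 14.8 on day 4 and 27.9, 22.0 and 21.1 on day 6. Noncoding Gm41262 had 11.1 beside CTCF folds of 16.2 and 27.1.

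At shared peaks the fold was mostly higher on day 6, and least so at gene ends. The median ratio of the day 6 to the day 4 fold was 1.13 over 5696 peaks, and 66.4% were higher on day 6, while the median number of fragments was 46 on both days and the expected background was 10.6 and 8.79. At 1084 coding gene ends the ratio was 1.02, from 64 and 59 fragments over 16.1 and 15.1 expected. Between genes it was 1.17, and at 281 pseudogene peaks 1.33, with 81.5% higher on day 6. The highest ratios among peaks with a −log10 q of 10 or more on a day included the site 93020 bp from Mctp2, with folds of 5.80 and 25.5 and CTCF folds of 14.4 and 36.8. The site 133578 bp from Cfap20dc had 13.1 and 49.0 with no CTCF. The pseudogenes Gm6368, Gm4928 (5.52 and 24.9) and Gm7964 (3.41 and 12.9) completed the 5. At Gm6368 a weak day 4 peak (4.78) overlapped a broad day 6 peak (96.3) that also overlapped a stronger day 4 peak (29.4), so its ratio follows from the pairing. The lowest ratios were at the proteasome subunit gene Psmd3 (6.70 and 2.05, from 110 and 45 fragments), inside Bbx (12.8 and 4.11), at Foxk2, a forkhead gene (7.60 and 2.90), at Uso1 and Gm15710 (9.06 and 3.50) and at noncoding Gm26671 (7.01 and 2.94). The folds of each day rest on its own background, and no change was tested.

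**Figure D5:**
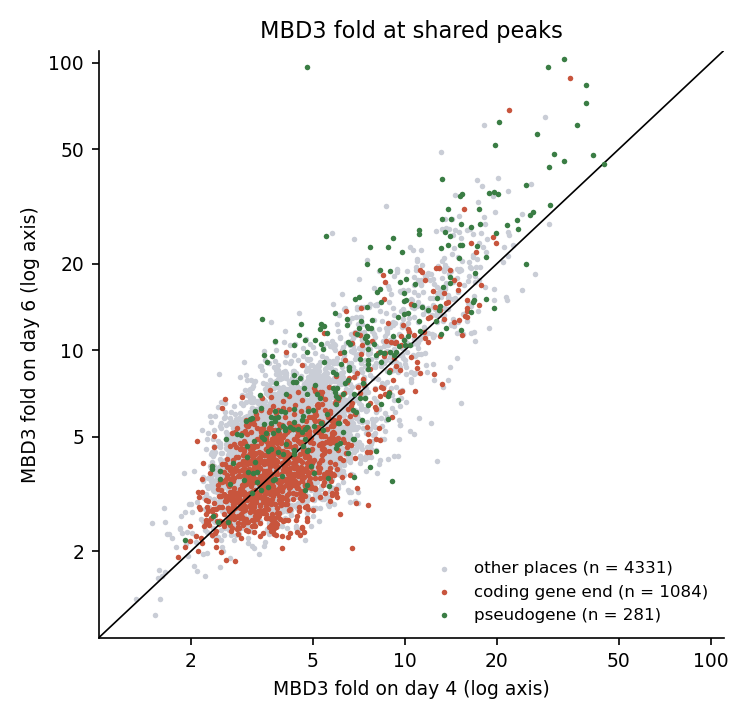
MBD3 fold on day 6 against day 4 (both log axes) at the 5696 shared peaks, with the line of equal folds. Peaks at coding gene ends lie around the line (median ratio 1.02) and most pseudogene peaks lie above it (1.33).

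The earlier days did not separate the single-day classes. An MBD3 peak of day 0 was found under 32.5% of the peaks of day 4 alone (30.9 to 34.1) and 32.4% of those of day 6 alone (31.1 to 33.7), against 69.6% of the shared peaks on day 4. The short day 2 list lay under 4.23%, 3.21% and 20.2%. Peaks found on neither earlier day made up 65.0% of day 4 alone, 65.1% of day 6 alone and 26.0% of the shared peaks. Pseudogene peaks stood apart on day 2, which held 38.0% of those of day 4 alone, 41.5% of those of day 6 alone and 82.2% of the shared ones.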

How the data were processed

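Peak lists of MBD3 and CTCF on days 0, 2, 4 and 6 were used, each called on the 3 pooled replicates per the names of the deposited lists. The submitters' processing notes name the build mm10, the aligner Bowtie2 2.3.4, the peak caller MACS2 2.1.2, SAMtools 1.9, bedtools 2.25.0 and the read check FastQC 0.11.7. How each list was controlled is not given in the sources used here. The authors deposited for each peak a score, the fold (a ratio) at the summit, the −log10 p and −log10 q, and the summit offset. The lowest −log10 q was 1.30 on both days, so the files hold called peaks only.

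An interval listed with several summits counts once, with its best summit. An overlap of at least 1 bp makes a peak shared. Fragments and expected background at a summit were recovered from fold and −log10 p, with a match within 0.1% for 99.7% (day 4) and 99.6% (day 6) of MBD3 peaks, and the strongest peaks were among those left out. At CTCF sites called on both days 98.1% were recovered. On 1865 simulated summits the right number was found for 1864, and on 3000 simulated peaks per list both the overlap code and bedtools 2.31.1 counted 961.

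RefSeq (GRCm38.p6) gave the outer ends of 21887 coding genes, without exons, so exons and introns were not told apart. Gene starts came from the table of promoters. Each summit was put in 1 place, with coding gene ends first. The members, gene lists, windows and rules were chosen with earlier results of these data known. Named genes are the 10 of highest fold per class, up to 5 per list and class by −log10 q, up to 3 per kind of place, and the 5 highest and lowest ratios of shared peaks, and the text gives a part of them. The account of CTCF fold, fragments and background at MBD3 sites and the second motif were added after the data were seen. No p-value was computed. Analyses used Python 3.11.15, numpy 2.4.6, pandas 2.3.3, scipy 1.17.1, statsmodels 0.14.6 and matplotlib 3.10.9.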

Additional observations from a re-analysis of the deposited data

Results flagged for a closer look

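Peaks outside chromosomes 1 to 19, X and Y were not part of the comparison, and both MBD3 lists held some, on the mitochondrial genome and on unplaced scaffolds: 31 on day 4 and 45 on day 6. On the mitochondrial genome there were 13 and 14, with folds of at most 1.87 and 1.73. A single scaffold held 10 of those of day 4 and 27 of those of day 6, with folds of at most 2.099 and 3.06. They are given as values because no comparison used them.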

How the results depend on the processing

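No paired analysis was possible because the authors pooled the 3 replicates before calling peaks, and for the same reason no replicate could be left out. Of 72 values under alternatives, 38 stayed within the limit, which is the 95% interval for a share and 1.5 times for a count, and 34 did not. In each setting that gave both, the gene-end share was higher and the CTCF share lower on day 4 alone than on day 6 alone. More genes had MBD3 on day 4 alone than on day 6 alone except with a window of 5 kb or a peak anywhere in the gene.

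Only peaks with a −log10 q of 10 or more gave shared shares of 70.4% of day 4 and 48.5% of day 6. Gene-end shares were then 26.3% (day 4 alone), 9.82% (day 6 alone) and 22.5% (shared), CTCF shares 89.7% and 94.7%, and 350 genes had MBD3 on day 4 alone against 345 on day 6 alone. Equal numbers of peaks per day gave shared shares of 57.8% of either day and CTCF shares of 73.5% and 95.6%. Summits within 100 bp gave shared shares of 61.6% and 51.1% and CTCF shares of 67.1% and 89.4%. A window of 5 kb gave gene-end shares of 40.8%, 26.5% and 40.1%, and 1280 genes of day 6 alone, against 1239 of day 4 alone. With a peak anywhere in the gene there were 1459, against 1285. Only CTCF peaks with a −log10 q of 10 or more gave 69.5% on day 4 alone, and leaving out pseudogene peaks gave a CTCF share of 94.3% on day 6 alone.

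Chosen after the data were seen, leaving out every peak where more than 10 times the genome-wide background was expected gave shared shares of 54.4% and 45.8%, gene-end shares of 25.8% (day 4 alone), 7.47% (day 6 alone) and 10.8% (shared) and a CTCF share of 76.7% on day 4 alone. The cut used the level of each list and came before the overlap, so peaks whose partner was removed moved into the single-day classes. Also chosen then, peaks with a −log10 q of 10 or more set against the whole list of the other day gave shared shares of 85.6% and 68.3%, gene-end shares of 28.1% (day 4 alone) and 22.8% (shared), and CTCF shares of 87.1% and 94.1%. The gene counts of this setting were made with the limit in both lists, so they repeat the 350 and 345 given above. Genes were not set against the whole list of the other day. The causes were not tested, apart from the wider windows, which take in more of the genome by construction. A peak missing from a list is not shown to be absent, since its fragments may lie just below the threshold of a day.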
